A study of Mus musculus with 7 samples.

Results

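RNA of 5 mouse esophageal epithelial cell lines with an altered p53 gene was compared with RNA of 2 wild-type lines, which together are all 7 lines of the study. The altered group joined the 3 lines with the missense allele p53R172H (mutant 1 to 3) and the 2 lines labelled p53 -/- null (null 1 and null 3). Membership came from the sample titles alone, without reference to any expression value. All 5 altered lines carry the treatment label 4NQO, for the carcinogen 4-nitroquinoline 1-oxide, and neither WT line does. Genotype and carcinogen label therefore cannot be told apart in any difference below. The sex-linked RNA Xist separated the same groups. All lines were grown in the keratinocyte medium KSFM and have a strain background given only as mixed. The dose and duration of 4NQO, the animals behind each line, whether a line is 1 clone, and how the p53R172H allele is expressed are not stated in the labels. The p-values therefore measure the spread between these lines, which may be technical in part.

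p53 is a transcription factor that binds DNA as a tetramer and, after damage to DNA, activates genes that stop the cell cycle, start cell death or help repair. Its target Mdm2 is a ubiquitin ligase that marks p53 for degradation, so the pair forms a feedback loop. The R172H substitution lies in the DNA-binding domain and corresponds to a hotspot mutation of human tumours. 4NQO forms bulky adducts on DNA and is widely used to induce squamous tumours of the mouse tongue and esophagus. The question for the comparison was what the altered lines have in common whichever p53 allele they carry.

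The libraries held 12751118 (WT 2) to 47000225 (mutant 1) counts, and 13768 genes had enough counts to be tested. Levels below are CPM (counts scaled to a common library size, expressed per 1e6 counts) on library sizes scaled by TMM, and 1 count was worth 0.0203 to 0.0812 CPM. The 14 esophageal epithelial markers on the list were all detected. Their summed level, mostly from Krt5 and Krt14, was 30462 and 41211 CPM in the WT lines and 7749 to 11722 CPM in the altered lines. Taken singly, 6 of the 14 lay wholly below WT in the altered lines and 0 wholly above, where 16.4% of all genes tested lay wholly below. In bulk RNA, fewer cells of a type and less RNA per cell cannot be told apart. The 10 immune markers summed to 80.3 and 83.4 CPM in the WT lines and 26.2 to 95.3 CPM in the altered lines, mostly from Cd68, while Cd3e was at 0 in every library and Ptprc at most 0.0609 CPM. The 8 nerve and melanocyte markers summed to 43.5 to 76.9 CPM in the WT lines and 42.0 to 139.7 CPM in the altered lines, mostly from Ncam1, with Sox10 and Dct at 0 in every library.

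The targeted gene matched the labels. Trp53, which encodes p53, was at 212 and 193 CPM in the WT lines, at 171.6, 250 and 254 CPM in the mutant lines and at 8.73 and 4.71 CPM in the null lines. The mutant lines were thus close to the WT lines and the null lines far below both. Pooling the alleles gave no call for Trp53 (log2 fold change -0.55, SE 1.31, adjusted p = 0.818, edgeR quasi-likelihood test).

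Altered and WT lines differed in 407 genes at an adjusted p below 0.05, which is 2.96% of the genes tested and is what "called" means below. Of these, 184 genes (1.34%) were higher and 223 (1.62%) were lower in the altered lines. The genes with a wide gap between the groups included Enpp4, Trim47 and the glycosyltransferase gene B4galt6 on the higher side, and Xist, Krt20 and the repair gene Mgmt on the lower side. Without a threshold on the adjusted p, 3552 genes had an unadjusted p below 0.05.

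In every called gene the 5 altered libraries lay wholly above or wholly below both WT libraries. Over all genes tested, 33.8% had groups that did not overlap, 17.4% with the altered lines higher and 16.4% with them lower. The range of the 5 altered libraries, on the scale log2(CPM + 0.5), had a median of 0.76 in the genes called higher, 0.66 in those called lower and 0.85 in the genes not called. The gap between the groups was wider than the range within the altered lines in 149 of the 184 genes called higher and in 169 of the 223 called lower. Small ranges are part of what the test selects, so these figures describe the called genes and do not test them.

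The altered lines were not a tight group over the whole transcriptome. The root mean square log2 difference between libraries was 0.49 between the 2 WT lines, 0.74 to 1.01 among the mutant lines and 1.07 between the null lines. Mutant 1 was nearer to null 3 (0.65) than to either other mutant line. Null 1 was the altered line nearest to the WT lines, at 0.86 from WT 1 and 1.03 from WT 2, against 1.16 to 1.28 for the mutant lines. It was nearer to both WT lines than to any other altered line, at 1.07 from null 3 and 1.13 to 1.17 from the mutant lines.

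**Figure D1:**
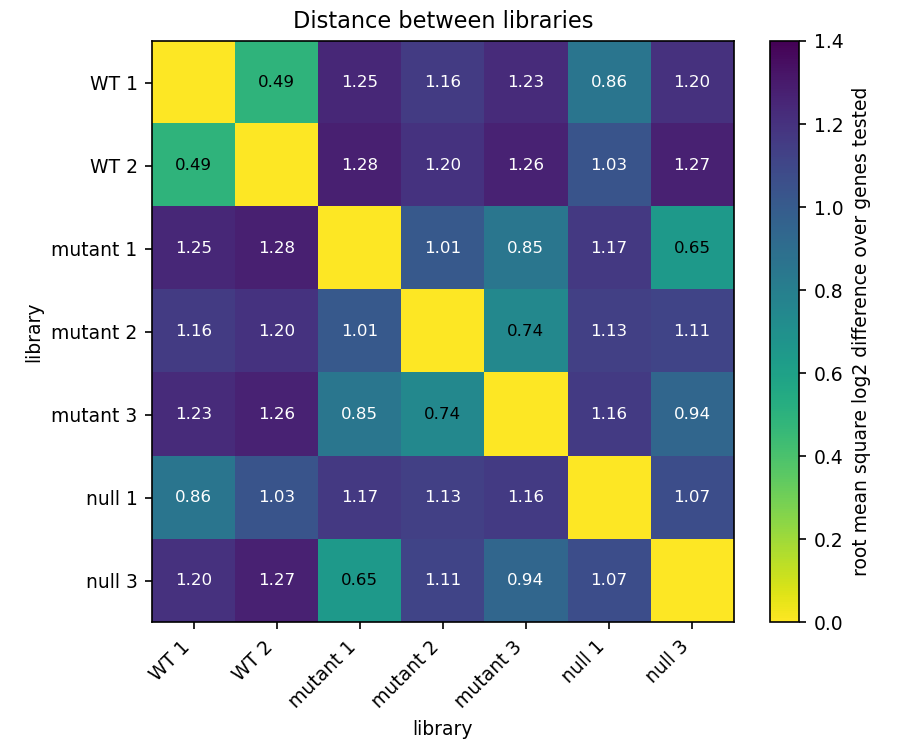
Matrix of the root mean square log2 difference in expression between every pair of the 7 libraries (rows and columns), over the 13768 genes tested; darker cells are more distant. The WT pair is the closest at 0.49, mutant 1 and null 3 are 0.65 apart, and null 1 is the altered library nearest to WT.

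Null 1 was the altered library closest to the WT level in 90 of the 184 genes called higher (48.9%) and in 86 of the 223 called lower (38.6%). Its share among genes not called was 36.5%. A direct test between mutant and null lines called 0 genes (0%) with edgeR, with 1924 genes at an unadjusted p below 0.05 and a smallest adjusted p of 0.0555, for Trp53. DESeq2 called 604 genes in the same contrast. Among the genes called between altered and WT lines, an unadjusted mutant-null p below 0.05 was found for 14 of the 184 higher genes (7.61%) and 27 of the 223 lower genes (12.1%), against 14.1% of the genes not called. The pooled fit counts allele differences as spread, so a lower share among called genes is part of what it selects. These shares do not test whether the alleles act alike.

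The count of calls rested on every library. With either WT line left out, edgeR called 1 gene, Xist, although 2346 genes (without WT 1) and 1468 genes (without WT 2) had an unadjusted p below 0.05; the remaining WT line was then assumed to vary like the others. The count was 43 without mutant 1, 148 without mutant 2, 62 without mutant 3 and 57 without null 3. It was 1512 without null 1, and those included all 407 genes.

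Known p53 target genes made up 15 of the 223 genes called lower. Of 50 genes on the list, 48 were tested (Spata18 and Ackr4 were below the count filter), 15 were called lower and 0 higher. Over all genes tested, 1.62% were called lower and 1.34% higher. The list was chosen with earlier results of these data known. The called genes include genes of cell cycle control (Cdkn1a, Btg2, Ccng1, Gtse1), cell death (Bax, Pmaip1, Fas), repair and damage tolerance (Ercc5, Polk) and the feedback on p53 itself (Mdm2). The median log2 fold change over the 48 genes was -0.88, against 0.09 over all genes tested.

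Among the cell cycle genes, Cdkn1a encodes the cyclin-dependent kinase inhibitor p21. Its level was 574 and 336 CPM in the WT lines, 49.97, 36.2 and 24.7 CPM in the mutant lines and 98.9 and 56.2 CPM in the null lines (values stand in the order of the line numbers throughout). Every altered line was below both WT lines, with null 1 the highest of the altered lines. The log2 fold change was -3.10 (SE 0.47, adjusted p = 0.0269, edgeR).

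Ccng1 encodes cyclin G1, which recruits a phosphatase to Mdm2. It was at 738 and 503 CPM in the WT lines, at 67.7, 59.6 and 67.0 CPM in the mutant lines and at 103 and 69.0 CPM in the null lines, and the log2 fold change was -3.08 with SE 0.24 (adjusted p = 0.00554, edgeR). Btg2, an antiproliferative gene, was at 201 and 193 CPM in the WT lines, at 13.8, 9.21 and 13.7 CPM in the mutant lines and at 22.2 and 15.9 CPM in the null lines. Its log2 fold change was -3.72 (SE 0.28, adjusted p = 0.00554, edgeR). For both genes null 1 was again the highest altered line and remained far below WT.

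Cd80, a costimulatory ligand for T cells that has been listed as a p53 target, had the largest decrease of the 15 called targets. It was at 87.8 and 46.1 CPM in the WT lines, at 2.97, 0.0475 and 2.71 CPM in the mutant lines and at 3.93 and 2.58 CPM in the null lines (log2 fold change -4.78, SE 0.97, adjusted p = 0.0496, edgeR). Mutant 2 stood apart below the other 4 altered lines.

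Promoter sequences are shown for the 3 called targets whose window of 250 bases before the annotated start held a match to the p53 response element, since the match lies in the same genes whose RNA was lower. The sequences are from RefSeq on GRCm38.p6, given 5′ to 3′ on the gene's strand, and the capitals mark the match of 20 bases, which allowed up to 2 mismatches to the consensus with the central C and G of each half-site kept. The consensus is its own reverse complement, so both strands were searched at once. The table holds a pair of windows for Cdkn1a, and the one at its other start, chr17:29093519-29093768, held no match. The Cdkn1a window shown is chr17:29090729-29090978 (+ strand, 1 mismatch, 31 bases from the match to the start), the Ccng1 window is chr11:40755287-40755536 (- strand, 1 mismatch, 175 bases) and the Cd80 window is chr16:38458683-38458932 (+ strand, 2 mismatches, 91 bases).
Cdkn1a: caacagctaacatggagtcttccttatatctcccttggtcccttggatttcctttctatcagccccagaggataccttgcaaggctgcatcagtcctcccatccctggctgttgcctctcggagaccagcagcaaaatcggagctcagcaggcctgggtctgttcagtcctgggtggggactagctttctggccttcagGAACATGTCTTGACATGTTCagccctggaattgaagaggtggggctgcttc
Ccng1: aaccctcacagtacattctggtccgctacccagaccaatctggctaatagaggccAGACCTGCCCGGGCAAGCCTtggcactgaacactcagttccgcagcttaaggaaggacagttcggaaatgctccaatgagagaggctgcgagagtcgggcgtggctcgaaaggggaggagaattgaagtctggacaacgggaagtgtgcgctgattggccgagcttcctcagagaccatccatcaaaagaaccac
Cd80: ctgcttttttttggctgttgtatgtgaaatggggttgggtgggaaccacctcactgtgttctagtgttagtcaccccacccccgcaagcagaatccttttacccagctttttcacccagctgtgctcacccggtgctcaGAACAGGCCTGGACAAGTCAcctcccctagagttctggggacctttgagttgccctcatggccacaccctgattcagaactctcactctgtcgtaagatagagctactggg

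Such a match was present in 89 of all 32851 RefSeq promoter windows of the same length (0.271%), and in 43 of 13148 windows of the genes tested (0.327%). Of the windows of tested p53 targets, 6 of 50 held one (36 genes found in the table), and of the windows of the called targets 3 of 16 did (18.8%, 12 of the 15 genes found). The p53 targets were listed for known regulation by p53, so a higher share is part of how the list was made. A match describes letters in this window and no binding was measured here.

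Mdm2 had nearly the same level in 4 of the 5 altered lines. It was at 328 and 203 CPM in the WT lines, at 90.5, 90.8 and 90.6 CPM in the mutant lines and at 109 and 91.0 CPM in the null lines. The log2 fold change was -1.49 (SE 0.19, adjusted p = 0.0211, edgeR), and the range within the altered lines was 0.26 on the log2 scale.

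Of the cell death genes, Fas, a death receptor, was at 19.3 and 14.4 CPM in the WT lines and at 2.65 (null 1) to 6.73 CPM (mutant 1) in the altered lines. Pmaip1, which encodes the BH3-only protein Noxa, was at 324 and 211 CPM in the WT lines and at 66.4 (mutant 3) to 120 CPM (null 3) in the altered lines. Bax, the pore-forming effector of mitochondrial cell death, was at 125 and 93.0 CPM against 44.6 (mutant 1) to 66.6 CPM (null 1). The log2 fold changes were -1.95, -1.45 and -0.9996, and the groups did not overlap for any of the 3 genes.

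Of the repair genes, Ercc5, an endonuclease of nucleotide excision repair, was at 91.3 and 107 CPM in the WT lines, at 27.8, 31.3 and 23.4 CPM in the mutant lines and at 19.7 and 25.5 CPM in the null lines (log2 fold change -1.96, SE 0.19, adjusted p = 0.0117, edgeR). Here null 1 was the lowest line, not the highest. Polk, a polymerase that copies past damaged bases, was at 67.5 and 62.0 CPM in the WT lines and at 24.0 to 29.7 CPM in the altered lines, with a log2 fold change of -1.28. The other targets called lower were Ptp4a3 (-2.34), Gtse1 (-1.69), Zmat3 (-1.45), Rap2b (-1.03) and Abhd4 (-0.86).

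Other well-known targets did not pass the test. The log2 fold changes were -0.22 for Bbc3, which encodes the cell death protein Puma, -0.11 for Sesn1 and -0.31 for Perp. The values for the repair genes Ddb2 and Xpc were -0.30 and 0.16. Dram1, an autophagy gene, had altered lines above both WT lines, with a log2 fold change of 1.73 (adjusted p = 0.127, edgeR), and was the 1 target of 48 with the altered group wholly above WT, while 28 had it wholly below (17.4% and 16.4% of all genes tested). The count of 15 fell to 0 without either WT line, to 5 without mutant 1 or mutant 3, to 8 without mutant 2 and to 4 without null 3, and was 20 without null 1.

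**Figure D2:**
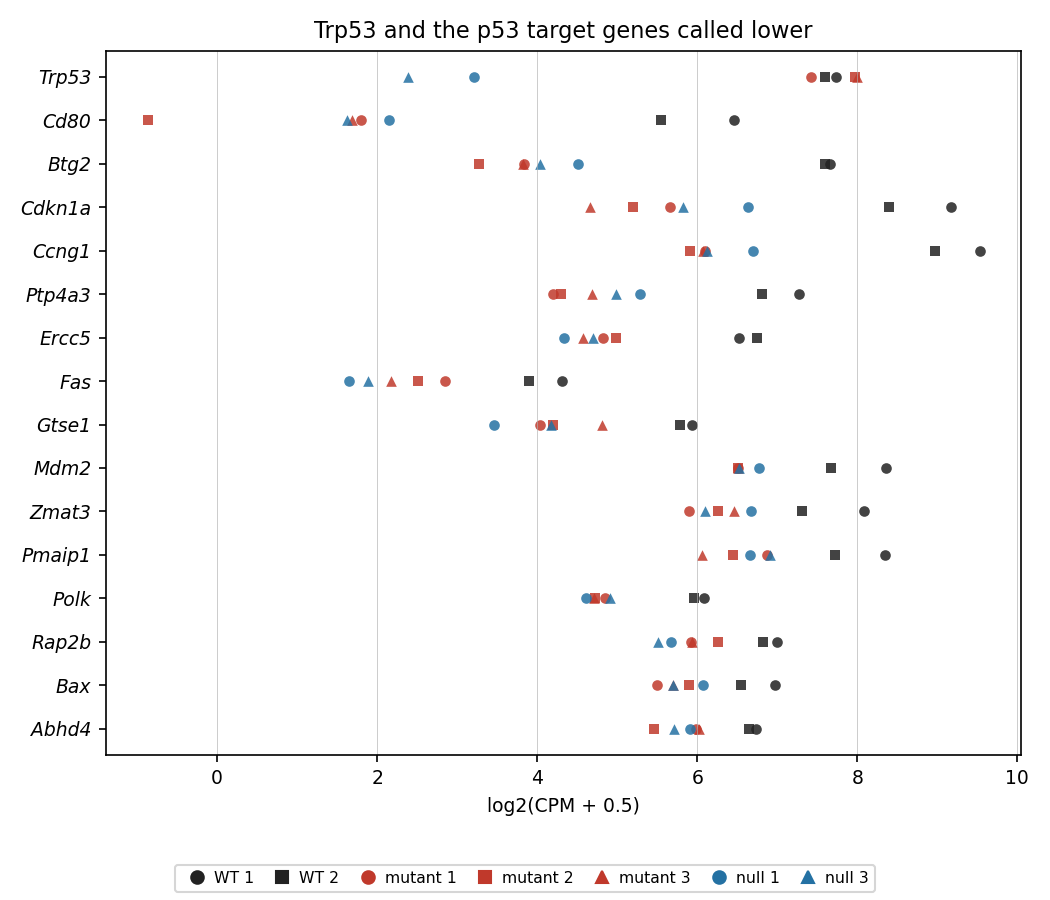
Level of Trp53 and of the 15 called p53 targets (rows) as log2(CPM + 0.5) in each of the 7 libraries; black marks are WT, red are mutant and blue are null lines, and the shape shows the line. Trp53 is low in the null lines alone, whereas for each target all 5 altered lines lie to the left of both WT lines.

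In the wider cell cycle and damage response, each list held 0 or 1 call. The shares over all genes tested were 1.34% called higher and 1.62% lower, and such counts in lists of this size are near them. On the DNA repair list, 1 of 36 genes tested was called. It was Mgmt, the methyltransferase that removes alkyl groups from guanine in DNA. Ercc5 and Polk, called lower above, were on the p53 target list and not on this list. Mgmt was at 52.7 and 28.6 CPM in the WT lines, at 2.44, 0.878 and 0.872 CPM in the mutant lines and at 2.01 and 1.94 CPM in the null lines (log2 fold change -4.64, SE 0.48, adjusted p = 0.0120, edgeR). All altered lines were at least 9.89-fold below the lower WT line on the scale CPM + 0.5.

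Among 22 CDK inhibitors and G1 regulators, Cdkn1a was the 1 gene called. Cdkn2a, which encodes p16INK4a and p19ARF, was at 39.9 and 65.1 CPM in the WT lines, at 253, 143 and 250 CPM in the mutant lines and at 118 and 286 CPM in the null lines, and just missed the threshold (log2 fold change 2.00, adjusted p = 0.0549, edgeR). With edgeR, 0 of 37 replication genes and 0 of 32 mitosis genes were called, with 7 and 1 at an unadjusted p below 0.05. Of all 13768 genes tested, 3552 had such a p. Myc was at 263 to 300 CPM in the WT lines and 280 to 447 CPM in the altered lines, and Ccnd1, which encodes cyclin D1, at 1190 and 1678 CPM against 268 (null 1) to 1395 CPM (mutant 1).

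Genes of epithelial identity included some lower keratins and cornified envelope genes, beside factors that were not called. Of 25 basal epithelial genes tested, Krt5 and Lama3 were called lower and Dlk2 higher. Of 48 suprabasal and cornified envelope genes, 5 were called lower and 0 higher, with a median log2 fold change of -1.39. Over all genes tested, 1.62% were called lower and 1.34% higher, and the median log2 fold change was 0.09. The count of 5 became 0 without WT 1, WT 2 or mutant 1, 3 without mutant 2, 2 without mutant 3, 1 without null 3 and 8 without null 1.

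Krt5, the basal keratin that pairs with Krt14, was at 13826 and 21396 CPM in the WT lines, at 4214, 2695 and 2215 CPM in the mutant lines and at 4048 and 2035 CPM in the null lines (log2 fold change -2.53, SE 0.35, adjusted p = 0.0236, edgeR). Krt14 lay at 11359 and 14406 CPM in the WT lines and 2399 (null 3) to 6430 CPM (mutant 2) in the altered lines, and just missed the threshold (log2 fold change -1.69, adjusted p = 0.0513, edgeR). Both keratins were lower in each altered line than in either WT line. The keratin genes Krt15 and Krt4 overlapped between the groups. Krt15 was at 48.0 and 65.0 CPM in the WT lines and 2.09 (null 3) to 94.1 CPM (mutant 2) in the altered lines. Krt4 was at 2.45 and 4.87 CPM against 0 (mutant 2) to 9.72 CPM (null 3). Lama3, a laminin chain of the hemidesmosome-anchored basement membrane, was at 1604 and 1903 CPM against 270 (mutant 3) to 622 CPM (mutant 1).

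The called suprabasal genes were Krt16, a keratin of activated epithelium, Sbsn, the envelope precursor Ivl, the crosslinking enzyme Tgm3 and the serpin Serpinb5. Krt16 was at 247 and 333 CPM in the WT lines and 19.1 (mutant 3) to 61.6 CPM (mutant 1) in the altered lines, with a log2 fold change of -2.68. Sbsn was at 124 and 205 CPM against 11.8 (mutant 3) to 35.3 CPM (null 1), with a log2 fold change of -2.92. Krt20, a keratin outside the lists that the rule on wide gaps named, was at 51.9 and 85.4 CPM in the WT lines and at most 1.19 CPM in the altered lines (log2 fold change -6.87, SE 0.80, adjusted p = 0.0174, edgeR).

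The lineage factors Trp63 and Sox2 overlapped between the groups. Trp63, the p53 family member that specifies stratified epithelium, was at 281 and 412 CPM in the WT lines and at 168 (null 3) to 441 CPM (mutant 3) in the altered lines. Sox2 was at 42.5 and 62.5 CPM against 25.3 (null 1) to 148 CPM (mutant 3), and the sign of its fold change depended on how the lines were weighted. Grhl2 and Ovol2, factors that maintain epithelial identity, lay wholly below WT in the altered lines without passing the test (log2 fold changes -0.94 and -1.24, adjusted p = 0.0991 and 0.0642, edgeR). With edgeR, 0 of 30 epithelial transcription factors and splicing regulators and 0 of 42 junction genes were called, with 7 and 11 at an unadjusted p below 0.05. The medians of these lists were -0.73 and -0.61, and 10 and 13 genes lay wholly below WT with 0 wholly above, where 16.4% of all genes tested lay wholly below. Cdh1, which encodes E-cadherin, was at 931 and 691 CPM in the WT lines and 289 (mutant 2) to 762 CPM (null 3) in the altered lines.

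Mesenchymal and matrix genes were called on the higher side alone. Of 42 mesenchymal transition genes, Sparc and Zeb2 were called higher, and of 34 collagen and matrix genes, Col16a1 and Lamb2. The share called higher over all genes tested was 1.34%. The medians of the lists were 2.52 and 4.42 on the log2 scale, with 20 and 15 genes at an unadjusted p below 0.05. All 5 altered lines lay above both WT lines for 10 of the 42 and 9 of the 34 genes, where 17.4% of all genes tested did, and below both for 3 genes of each list.

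Sparc, a matrix-associated glycoprotein, was at 20.6 and 39.1 CPM in the WT lines, at 627, 1265 and 666 CPM in the mutant lines and at 135 and 644 CPM in the null lines (log2 fold change 4.49, SE 0.90, adjusted p = 0.0495, edgeR). Zeb2, a repressor of E-cadherin, was at 3.61 and 4.38 CPM in the WT lines and 66.1 to 83.4 CPM in the altered lines other than null 1, which was at 11.1 CPM (log2 fold change 3.90, adjusted p = 0.0499, edgeR). Null 1 was the lowest altered line for both genes. Col16a1, a fibril-associated collagen chain, was at 3.33 and 1.14 CPM in the WT lines and 27.4 (mutant 2) to 67.2 CPM (mutant 1) in the altered lines, with a log2 fold change of 4.10, and here null 1 was not the lowest.

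The hallmark intermediate filament gene Vim divided the altered lines. It was at 0.646 and 3.41 CPM in the WT lines, at 343, 577 and 825 CPM in the mutant lines, and at 2.71 and 225 CPM in null 1 and null 3, so null 1 lay within the WT range (log2 fold change 7.71, adjusted p = 0.0931, edgeR). Zeb1 was at 0.0340 and 0.162 CPM in the WT lines, 28.9 to 53.7 CPM in the mutant lines and 0.274 and 6.23 CPM in null 1 and null 3. All altered lines thus lay above both WT lines for Zeb1, null 1 only narrowly, and for Vim they did not. Neither gene was called (adjusted p = 0.0965 for Zeb1, edgeR).

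Fibroblast markers moved with some of these lines. The summed level of the 10 markers, all detected in at least 1 library, was 5.65 and 8.20 CPM in the WT lines, 569, 376 and 423 CPM in mutant 1, mutant 3 and null 3, and 9.75 and 8.09 CPM in mutant 2 and null 1. The highest members were Col1a2 in mutant 1 (326 CPM), Col3a1 in null 3 (276 CPM) and Col1a1 in mutant 3 (111 CPM), and Pdgfrb reached 59.99 CPM and Dcn 12.8 CPM. Lum was at 0 in 6 of 7 libraries and Thy1 was at most 0.494 CPM. In mutant 2 and null 1, Sparc was at 1265 and 135 CPM and Col16a1 at 27.4 and 37.7 CPM. The part of fibroblast marker RNA in the mesenchymal and matrix results was not tested.

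Glycosyltransferases, the Golgi enzymes that build the sugar chains of glycoproteins and glycolipids, held calls in both directions. Of 42 genes on the list 33 were tested, and 7 were called higher and 2 lower, with a median log2 fold change of 0.31 (over all genes tested, 1.34% were called higher and 1.62% lower). With limma-voom the list held 1 call higher and 1 lower. The higher genes were the sialyltransferases St6galnac4 and St6galnac6, the galactosyltransferases B4galt2, B4galt4, B4galt5 and B4galt6, and the fucosyltransferase family gene Fut10. The lower genes were St6galnac2 and B4galnt1.

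B4galt6, which makes lactosylceramide, was at 0.0680 and 0.162 CPM in the WT lines, at 20.7, 38.9 and 40.9 CPM in the mutant lines and at 14.1 and 31.4 CPM in the null lines (log2 fold change 8.13, SE 0.77, adjusted p = 0.0117, edgeR). The WT lines held 4 counts of this gene in all. St6galnac4, which adds sialic acid to O-linked chains, had 0 counts in both WT lines and 7.39 (null 1) to 19.5 CPM (mutant 3) in the altered lines. Against a floor of 3 counts over the WT group it was at least 177-fold higher (adjusted p = 0.0120, edgeR), a bound that covers counting error only.

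Within the galactosyltransferase family the members differed. B4galt4 was at 0.748 and 0.325 CPM in the WT lines and 5.16 (null 3) to 15.7 CPM (null 1) in the altered lines, with a log2 fold change of 4.18. B4galt1, the family's widely expressed member, was at 311 and 344 CPM against 250 to 354 CPM and was not called (log2 fold change -0.13). B4galnt1, a ganglioside synthase, was at 140 and 165 CPM in the WT lines and 75.2 to 86.1 CPM in the altered lines, with a log2 fold change of -0.93. The 7 higher calls became 0 without either WT line, 2 without mutant 1, mutant 3 or null 3, 4 without mutant 2 and 9 without null 1.

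Enpp4, an ectonucleotidase, had the smallest p of the genes called higher that the wide-gap rule named. It was at 0.204 and 0.244 CPM in the WT lines, at 15.5, 18.1 and 22.8 CPM in the mutant lines and at 17.5 and 15.3 CPM in the null lines (log2 fold change 6.32, SE 0.38, adjusted p = 0.00249, edgeR). The WT lines held 9 counts in all, and the lowest altered line was 21.3-fold above the higher WT line on the scale CPM + 0.5. Trim47, a ubiquitin ligase gene, was at 0.408 and 0.487 CPM in the WT lines and 19.8 (null 1) to 35.7 CPM (mutant 3) in the altered lines, with a log2 fold change of 5.90.

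Some of the other genes with wide gaps encode proteins of the cell surface and its surroundings. F2r, the thrombin receptor, was at 2.08 and 2.44 CPM in the WT lines, at 92.5 to 126 CPM in 4 altered lines and at 18.4 CPM in null 1 (log2 fold change 5.37, adjusted p = 0.0316, edgeR). Wisp1, a secreted matricellular protein, was at 2.72 and 2.76 CPM in the WT lines and 28.4 (mutant 3) to 169 CPM (mutant 2) in the altered lines. Heg1, a transmembrane protein, was at 0.408 and 0.974 CPM against 12.02 (null 1) to 45.4 CPM (null 3). The same rule also named Lonrf3, Tbc1d9, Copz2 and Hspb8 on the higher side. Lonrf3 and Tbc1d9 had wider gaps (3.09 and 2.91 on the log2 scale) than F2r (2.69).

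**Figure D3:**
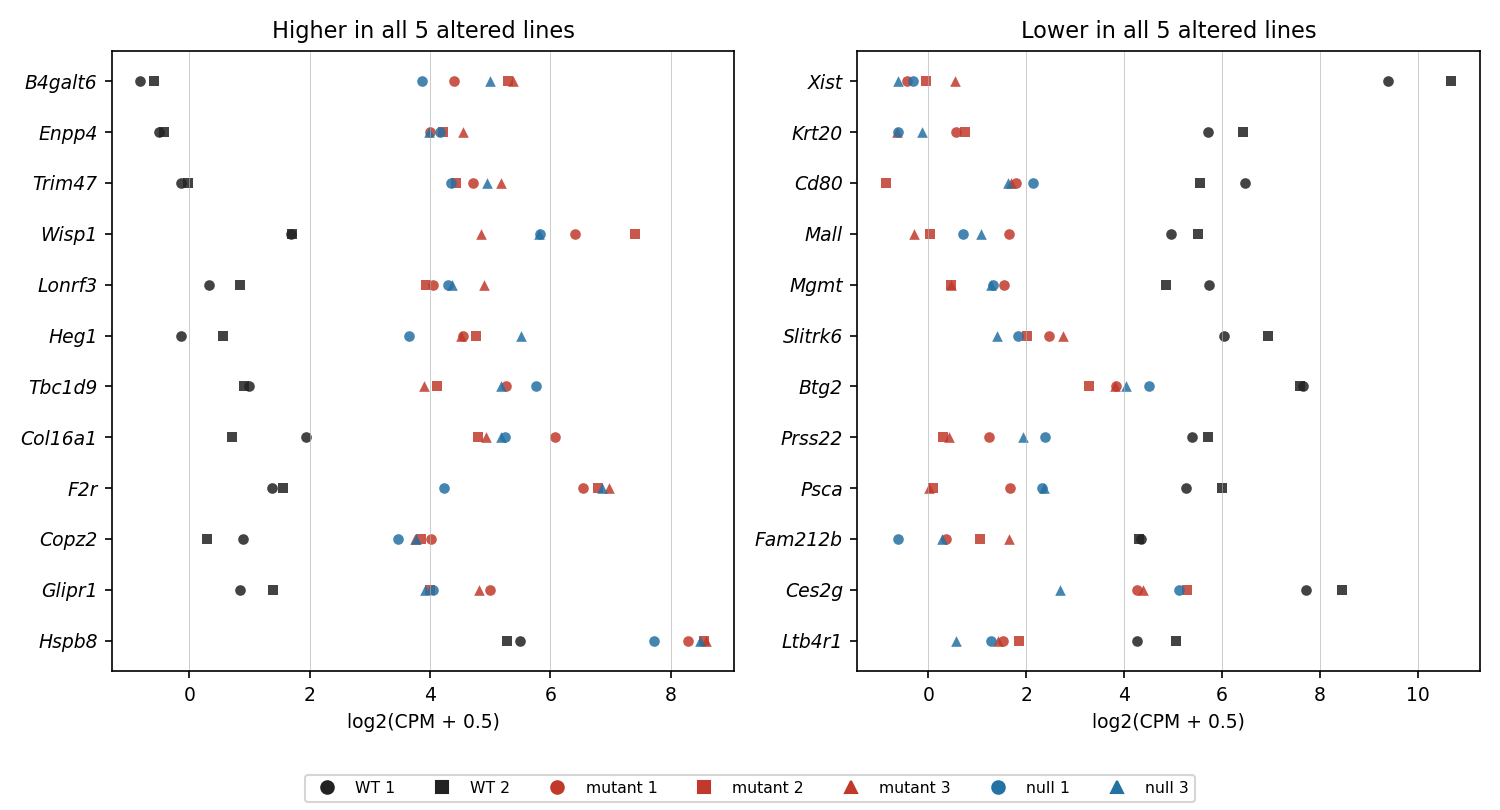
The 12 called genes in each direction with the widest gap between the groups, as log2(CPM + 0.5) in each of the 7 libraries; black marks are WT, red are mutant and blue are null lines. Enpp4 forms a narrow set in the altered lines, F2r has null 1 apart from the other 4, and Cd80 has mutant 2 apart.

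Xist, the RNA that silences 1 X chromosome in female cells, was at 675 and 1653 CPM in the WT lines and at most 0.964 CPM in the altered lines (log2 fold change -11.4, SE 0.68, adjusted p = 0.00249, edgeR). Of 9 sex-linked genes tested, Xist was the 1 called, and 8 had an unadjusted p below 0.05. The X-linked genes Kdm6a and Eif2s3x lay wholly below WT in the altered lines (log2 fold changes -0.48 and -0.56, adjusted p = 0.188 and 0.139, edgeR).

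The Y-linked genes divided the altered lines. Ddx3y was at 0.987 and 0.0812 CPM in the WT lines, at 77.0, 70.5 and 67.4 CPM in the mutant lines and at 0.0304 and 96.4 CPM in null 1 and null 3. Uty, Kdm5d and Eif2s3y were likewise at 11.8 CPM or more in the mutant lines and null 3, at 0 in null 1 and at most 0.953 CPM in the WT lines. Low Xist thus went with Y-linked RNA in 4 altered lines and without it in null 1. Since Xist separates the same lines as genotype and carcinogen label, these 3 cannot be told apart, and the part of sex-linked differences in the other calls was not tested. As given above, it was also the 1 call left without either WT line.

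Stress genes were called on the higher side alone. Of 41 NRF2 and glutathione genes, Gstm1, Gstm5 and Nnt were called higher and 0 lower, where 1.34% of all genes tested were called higher. Nnt, the mitochondrial transhydrogenase that supplies NADPH, was at 16.2 and 15.7 CPM in the WT lines, at 53.1, 65.1 and 63.0 CPM in the mutant lines and at 56.7 and 61.7 CPM in the null lines (log2 fold change 1.91, SE 0.16, adjusted p = 0.00822, edgeR). Gstm5, a glutathione transferase, was at 15.6 and 10.1 CPM against 40.1 to 48.7 CPM. Both had narrow ranges in the altered lines, 0.29 and 0.28 on the log2 scale.

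Of 32 heat shock and chaperone genes, Hspb8 and Hsph1 were called higher and 0 lower, beside the same share of 1.34% over all genes tested. Hspb8, a small heat shock protein of chaperone-assisted autophagy, was at 44.7 and 38.2 CPM in the WT lines, at 312, 375 and 385 CPM in the mutant lines and at 210 and 359 CPM in the null lines (log2 fold change 2.98, SE 0.30, adjusted p = 0.0117, edgeR). Hsph1, a nucleotide exchange factor for Hsp70, was at 101 and 80.8 CPM against 171 to 236 CPM.

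Signalling lists held 1 to 3 calls each, or 0. With 1.34% of all genes tested called higher and 1.62% lower, a single call in a list of this size is near the share over all genes. Of 38 immediate early and MAPK feedback genes, the phosphatase gene Dusp4 was called higher (log2 fold change 2.82) and Dusp5 and Ier2 lower (-1.13 and -0.89). Of 21 Notch pathway genes, Nrarp, a feedback inhibitor of Notch, and the protease gene Adam17 were called lower (-2.32 and -1.04). Of 30 YAP and TEAD targets, Ajuba and Igfbp3 were called lower (-0.91 and -1.67).

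Of 40 TGF-beta and BMP genes, Id1, a BMP-induced inhibitor of differentiation factors, was called higher. It was at 0.612 and 1.14 CPM in the WT lines, 30.7 to 48.3 CPM in 4 altered lines and 4.17 CPM in null 1. Of 54 receptor tyrosine kinase genes and ligands, Ephb4 was called higher (log2 fold change 1.04) and Igfbp3, which is also on the YAP list, lower.

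With edgeR, 0 genes were called among 35 interferon-stimulated genes, 17 antigen presentation genes, 39 cytokine and NF-kB genes, 42 WNT pathway genes, 27 HOX genes and 36 chromatin enzymes. At an unadjusted p below 0.05 these lists held 2, 0, 15, 10, 3 and 11 genes. Csf1, the growth factor for macrophages, was at 22.6 and 18.1 CPM in the WT lines and 57.6 (null 1) to 354 CPM (mutant 1) in the altered lines, and was not called (log2 fold change 3.20, adjusted p = 0.0806, edgeR). All 5 altered lines lay above both WT lines for Csf1 but spread widely among themselves.

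**Figure D4:**
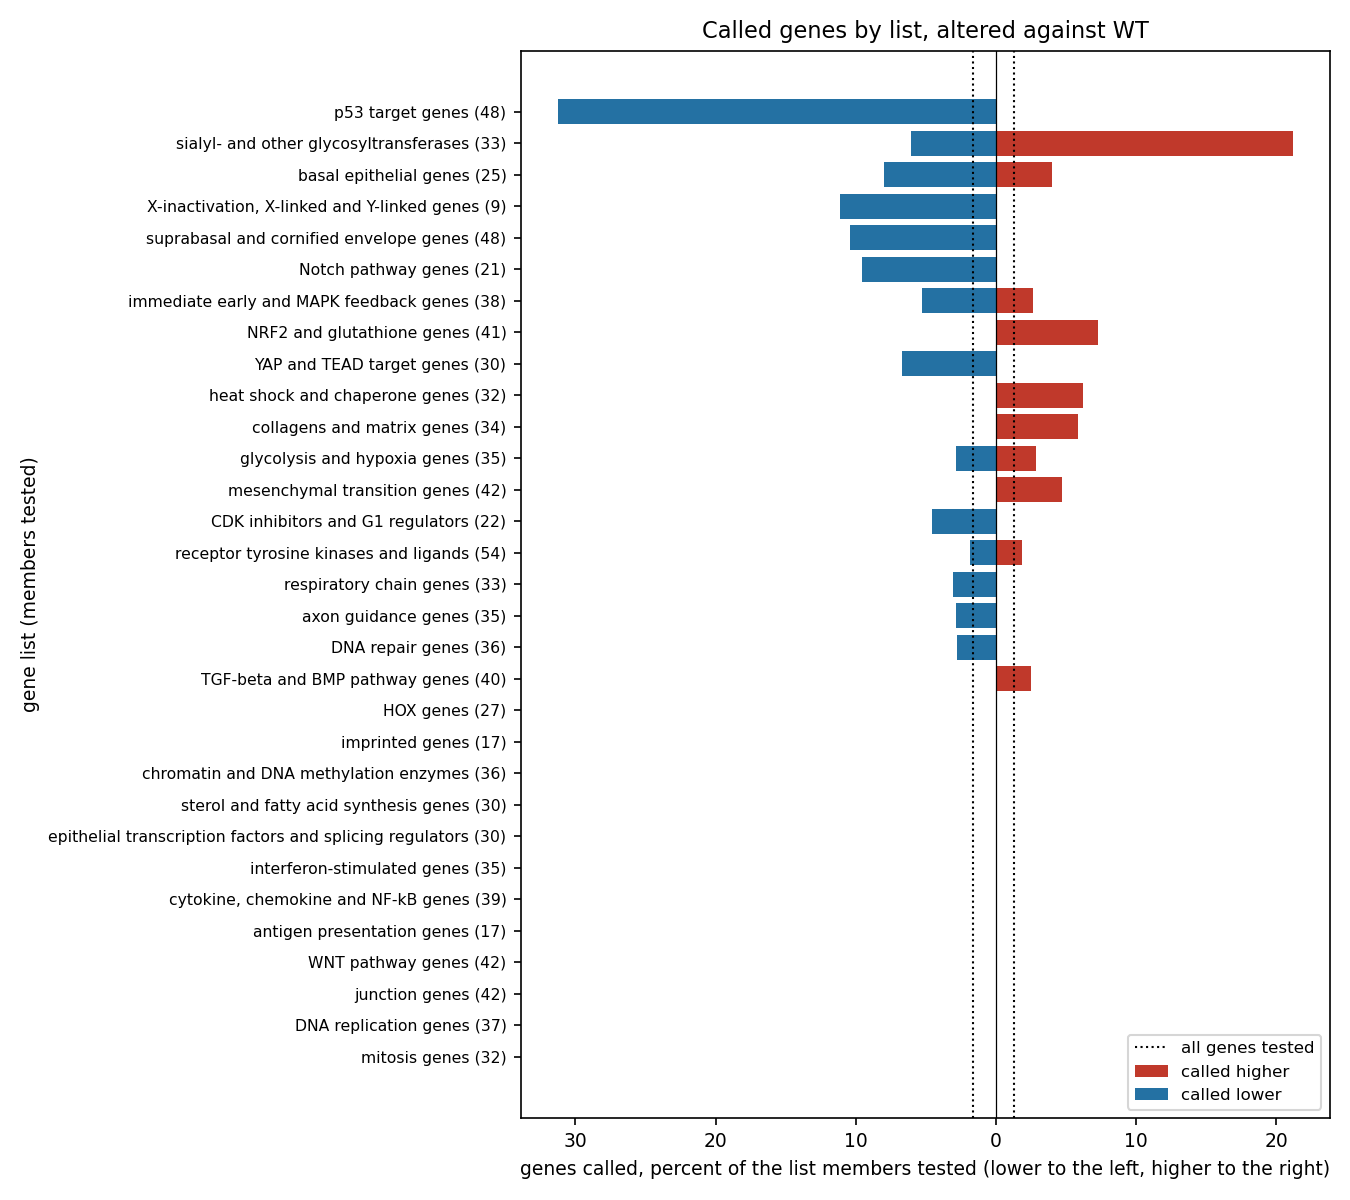
Genes called in each gene list (rows, with the number of members tested), as percent of the members tested; blue bars to the left are genes called lower and red bars to the right genes called higher in the altered lines, and dotted lines mark the shares over all genes tested, 1.62% and 1.34%. The p53 targets have the longest bar of the lower calls and the glycosyltransferases the longest of the higher calls.

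Some shared changes were modest in size, and several were nearly equal in all altered lines. Phf13, a chromatin-binding protein gene, was at 33.3 and 21.4 CPM in the WT lines and 71.2 to 79.2 CPM in the altered lines, a range of 0.15 on the log2 scale (log2 fold change 1.46, adjusted p = 0.0236, edgeR). P4ha1, a collagen prolyl hydroxylase, was at 40.7 and 38.4 CPM against 74.3 to 85.4 CPM, a range of 0.20. Rpl3, a protein of the large ribosomal subunit, had a wider range of 0.43, at 1022 and 1048 CPM in the WT lines, 487 to 527 CPM in 4 altered lines and 657 CPM in null 1.

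Phf13 and several other called genes neighbour each other on chromosome 4, and this pattern was chosen after the values were seen and was not tested. Gene order came from the RefSeq table of GRCm38.p6, in which 13697 of the 13768 genes were found, and each chromosome's tested genes were divided into 10 equal segments. In segments 7 to 10 of chromosome 4, from Zmym4 to Klhl17, 28 of 349 genes were called higher (8.02%), against 7 of 528 in segments 1 to 6 (1.33%). The calls included Yars, Rbbp4, Kpna6, Clic4, Emc1, Plod1 and Klhl21. The 3 genes of the block called lower were Slc2a5, Plch2 and Tnfrsf18.

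The median log2 ratio to the WT mean in this block, over genes with at least 5 CPM on average, was 0.50, 0.71 and 0.63 for the mutant lines, with 0.54 and 0.55 for the null lines. All 5 ratios share the same 2 WT lines, which differed from their own mean by 0.11 in the block. In segments 1 to 6 the medians of the altered lines lay between -0.12 and 0.06. Genes elsewhere with GC content in the block's middle quartiles (51.2 to 57.3%) had medians of -0.07 to 0.03, and 1.26% of them were called higher. The 28 calls became 0 without WT 1, WT 2 or mutant 1, 6 without mutant 2, 1 without mutant 3, 2 without null 3 and 70 without null 1, while the block's median log2 fold change stayed between 0.49 and 0.74 in these fits. The 4 segments were not equally high: the medians of the altered lines were 0.57 to 0.84 in segment 7 and 0.27 to 0.48 in segment 10. Other segments reached as high in all 5 lines with fewer calls, namely segment 10 of chromosome 3 (0.51 to 0.997, with 3 of 68 genes called higher) and segment 4 of chromosome 2 (0.51 to 0.77, with 2 of 107).

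**Figure D5:**
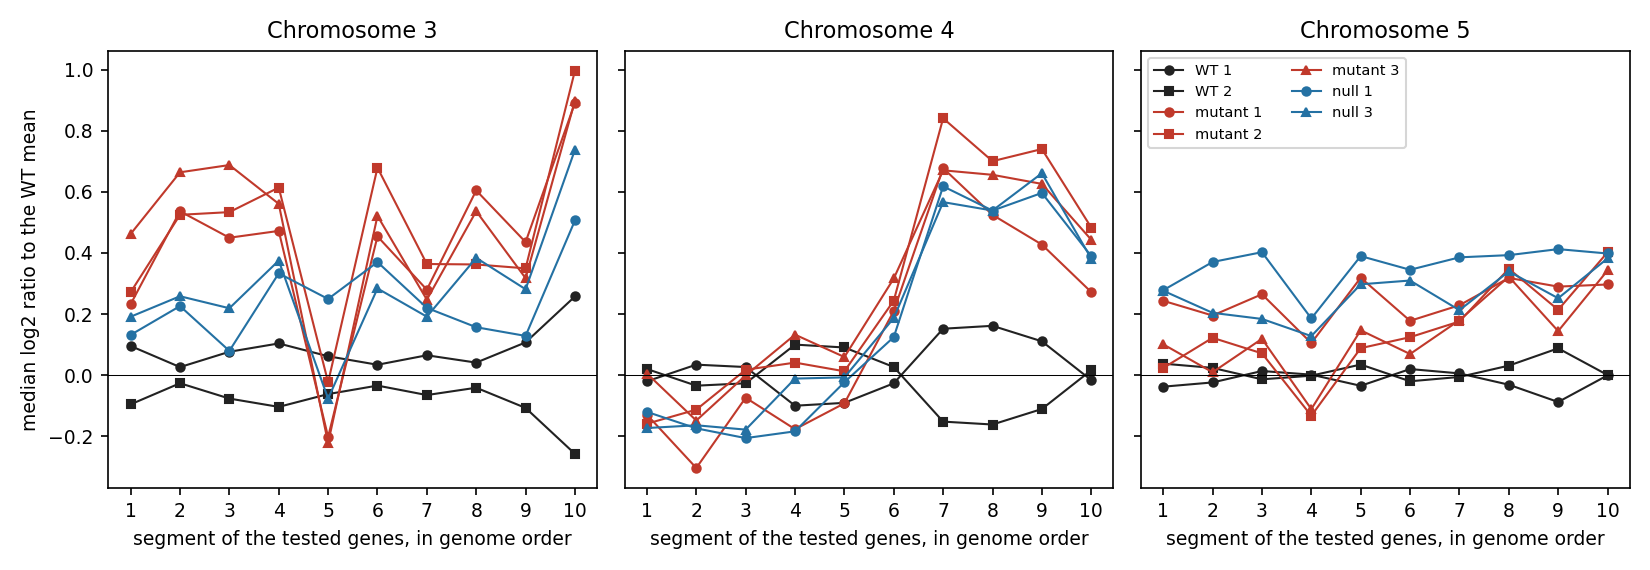
Median log2 ratio of each library to the mean of the WT lines, by segment of the tested genes in genome order (10 per chromosome), on chromosomes 3, 4 and 5; black lines are WT, red are mutant and blue are null lines. On chromosome 4 all 5 altered lines step up from segments 1 to 6 (medians over the 6 segments together of -0.12 to 0.06) to segments 7 to 10 (0.50 to 0.71 together), and null 1 moves with the others.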

How the data were processed

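The authors deposited raw counts for 7 libraries in 1 table of 24047 gene names. The submitters' processing notes name STAR 2.5.1b and the build mm9, and per the labels' protocols the libraries came from a stranded mRNA kit. No source used here names the counting tool, its strand setting or the annotation, so overlapping genes and close paralogs are uncertain. All 92 spike-in names had 0 counts and were left out, and 27 date-like names were kept but not named. Replicate libraries differed by 58.7 to 245.6 chi-square per degree of freedom, so none was a copy of another.

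Altered (n = 5) and WT (n = 2) libraries were compared in R 4.3.3 with edgeR 4.0.16 (quasi-likelihood F test in its legacy form, TMM factors, the default filter on low counts, Benjamini-Hochberg adjustment over 13768 genes, threshold 0.05). Residual degrees of freedom were 5 and the common biological coefficient of variation was 0.531. The fit ignores genotype within the altered group, so allele differences count as spread. The SE of a fold change is its size divided by the square root of F. A mutant-against-null contrast came from a fit of 3 groups. The analysis was tested on simulated counts.

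Named genes were, in each direction, the 12 called genes with the widest gap and at least 10 CPM in each library of the higher group, the 6 most abundant, the 8 with the narrowest range in the altered lines, up to 4 called genes (or the 2 with the smallest p) of each list, and 16 fixed genes. Beyond this rule, further members of the p53, suprabasal and glycosyltransferase lists and of the chromosome 4 block were named after their values were seen. The 38 lists, the comparison and its members were chosen with earlier results of these data known. Alternatives were limma 3.58.1 (voom), DESeq2 1.42.0, other scaling factors and filters, fits by genotype, thinned libraries, a replicate block and each library left out. The counts per list and for the chromosome 4 block under these alternatives, and the set of genes matched on GC content, were added after seeing the data.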

Additional observations from a re-analysis of the deposited data

Results flagged for a closer look

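For the 123 named genes, 16 had 1 of the 5 altered libraries standing apart from the other 4 by Dixon's ratio (13.01%), and 11 of the 16 were in null 1. Chance flags about 1 in 20 of independent sets of values. Many of these genes were named for their values in the same libraries, so 13.01% is not a test against that rate. Null 1 was the lowest altered library for F2r (18.4 CPM, the others 92.5 to 126), Grb10 (6.57 CPM, the others 175 to 379), Id1 (4.17 CPM, the others 30.7 to 48.3), Impact (18.1 CPM, the others 64.2 to 101), Pole2 (1.55 CPM, the others 6.04 to 9.36), Vim (2.71 CPM, the others 225 to 825) and Zeb2 (11.1 CPM, the others 66.1 to 83.4). It was the highest for Ccng1 (103 CPM, the others 59.6 to 69.0), Mdm2 (109 CPM, the others 90.5 to 91.0), Nfkbia (162 CPM, the others 77.6 to 92.0) and Rpl3 (657 CPM, the others 487 to 527). Null 1 lay towards the WT level in these genes except Pole2, a replication gene at 18.1 and 34.6 CPM in the WT lines, where it lay farther from WT.

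The other 5 were spread over 3 lines. In mutant 2, Cd80 was low at 0.0475 CPM (the others 2.58 to 3.93) and Dlk2 was high at 58.5 CPM (the others 26.3 to 33.2). In mutant 3, the plakophilin gene Pkp3 was low at 89.1 CPM (the others 134 to 157). In null 3, Tgm3 was the highest at 0.380 CPM (the others 0.119 to 0.184), and the muscle factor Myod1 was at 23 CPM against at most 0.610 CPM in the others.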

How the results depend on the processing

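The counts of called genes depended on the fit. The 407 calls (184 higher, 223 lower) became 2583 (1592 higher, 991 lower) with DESeq2, 251 (52 higher) with limma-voom, 258 (110 higher, 148 lower) with no filter on low counts and 648 (386 lower) with genotypes weighted equally. They became 1022 (454 higher, 568 lower) with mutant lines only, 19 (10 higher, 9 lower) with null lines only, and 342 lower genes with the newer quasi-likelihood form. The share of calls that were higher was 45.2%, 61.6% with DESeq2 and 20.7% with limma-voom, and 404 of the 407 genes were among the DESeq2 calls. Leaving out 1 library gave 1 to 1512 calls, 0 to 746 higher and 1 to 766 lower. No call was left with a replicate block (0 called, 0 higher, 0 lower; 2201 genes at an unadjusted p below 0.05, smallest adjusted p 0.0561). The labels do not say that a number marks a pair, and same-numbered libraries correlated from -0.36 to 0.15 in their deviations from the group means. Between mutant and null lines, 0 calls became 604 with DESeq2, 1 with the newer form, and 0 to 22 with 1 library left out. Of the named genes, Sox2 changed sign to -0.14 with genotypes weighted equally, -1.01 with null lines only, -0.14 with the replicate block and -0.35 without mutant 3 (range with 1 library left out -0.35 to 0.57). Trp53 was at 0.15 with mutant lines only, Esrp1 at 0.13 with null lines only and Trp63 at 0.10 without WT 2 (range -0.44 to 0.10). The cause of these changes was not tested. The precision is limited by 2 WT lines; the smallest library, WT 2, is also 1 of them, and thinning all libraries to its total gave 433 calls.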

Other observations

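By chromosome, chromosomes 3 and 5 also had medians above the WT mean in every altered line (0.24 to 0.54 and 0.13 to 0.37 on the log2 scale). Of the 200 chromosome segments (10 per chromosome), 7 had all 5 altered lines above 0.3, and 0 had all 5 below -0.3. The skeletal muscle regulator Myog was at 29.0 CPM in null 3 and did not exceed 0.122 CPM elsewhere.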
